A study of Homo sapiens with 12 samples.

Results

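GAS5 and 9 further genes that carry small nucleolar RNAs (snoRNAs) in their introns and encode no known protein were followed through 12 RNA sequencing libraries of hepatocellular carcinoma (HCC) cells. The genes were chosen by name (GAS5, SNHG1, SNHG5, SNHG6, SNHG7, SNHG8, SNHG12, SNHG15, SNHG16 and ZFAS1), and all 10 were found among the 11548 rows of the table. SNHG7 stood on 2 rows, which the table does not tell apart by an identifier, so that 11 rows were described. The human HCC cell lines Hep3B, Huh7 and MHCC97H, labelled wild type, were left untreated or received 100 nM of AZD8055, compound #57 or the combination of 100 nM of AZD8055 with 5 µM of compound #57. AZD8055 is an ATP-competitive inhibitor of the mTOR kinase in both of its complexes, and compound #57 is an allosteric inhibitor of the phosphatase SHP2, whose dose alone is not given in the sources used here. Hep3B and Huh7 cells were exposed for 48 h and MHCC97H cells for 24 h, so that the exposure cannot be told apart from the cell line. Each condition was 1 library, so that the cell line was the only replicate. The p-values measure how unevenly the 3 lines responded, after differences in level between the lines were removed. This spread was estimated from all 12 libraries together and moderated by that of the other genes.

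The libraries held 10659949 to 15957248 reads, and the 11 rows had between 21 reads (SNHG7 row 1) and 2498 reads (GAS5) in a library. Levels are given as scaled reads, that is, reads scaled to a library of 10000000. These are shares of a library, in which less of an RNA per cell and more of all other RNA cannot be told apart. All 14 markers of hepatocytes and HCC were in the table. Their summed level was 289856 to 629468 in the Hep3B libraries, 400207 to 539620 in those of Huh7 and 53555 to 62442 in those of MHCC97H, where TTR, the thyroxine carrier transthyretin, had no read in 2 of the 4 libraries. With the combination, FGB, HNF4A and KRT8 were called higher and APOB was called lower. Of 8 markers of blood, endothelial and stromal cells, only PECAM1 and COL1A1 were in the table, with a summed level of 37.5 to 898. COL1A1, a collagen chain, was called higher with the combination (log2-fold change 2.15, adjusted p = 0.0289, limma). The part of either list in the results on the hosts was not tested.

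SnoRNAs guide the chemical modification of ribosomal RNA. Those of the box C/D class (SNORD) direct methylation of ribose, and those of the box H/ACA class (SNORA) direct the conversion of uridine to pseudouridine. In human cells most of them are cut out of introns, and the spliced exons of a host such as GAS5 are exported, meet ribosomes and are degraded by nonsense-mediated decay (NMD), which needs ongoing translation. GAS5 was named for its accumulation in growth-arrested cells. Many hosts, like the ribosomal protein genes, start with a cytosine followed by further pyrimidines, the 5′ terminal oligopyrimidine (TOP) element, through which mTOR controls translation.

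On GRCh38, GENCODE release 44 places GAS5 on the minus strand of chromosome 1, from 173858559 to 173868882. Its introns hold 10 box C/D snoRNAs, from SNORD74 next to the start to SNORD81, and the box H/ACA snoRNA SNORA103. SNHG1 on chromosome 11 (62851978 to 62855953, minus strand) carries 8 box C/D snoRNAs, SNORD22 and SNORD25 to SNORD31. ZFAS1 (chromosome 20, 49278178 to 49299600, plus strand) and SNHG16 (chromosome 17, 76557727 to 76670985, plus strand) each hold 3 box C/D snoRNAs. SNHG12 (chromosome 1, 28578538 to 28583132, minus strand) holds 3 box H/ACA snoRNAs and SNORD99. SNHG5 (chromosome 6, 85650491 to 85678932, minus strand) holds SNORD50A and SNORD50B, and SNHG7 (chromosome 9, 136721366 to 136728184, minus strand) holds SNORA17A and SNORA17B. SNHG8 (chromosome 4, 118278703 to 118285316, plus strand), SNHG15 (chromosome 7, 44983019 to 44986961, minus strand) and SNHG6 (chromosome 8) hold 1 each, SNORA24, SNORA9 and SNORD87. The sequenced libraries were made from polyadenylated RNA, so that the values are those of the host transcripts and not of the snoRNAs.

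The sequences around the annotated starts are shown because the start decides whether a host carries a TOP element. RefSeq promoters on GRCh38.p14 were matched for 8 of the 10 genes, and SNHG6 and SNHG15 had no entry. Each line gives 20 bases before and 30 bases from the start, 5′ to 3′ on the strand of the gene, with the run of pyrimidines that opens with a cytosine at the start in capitals:
SNHG5 (chr6:85678704-85678753): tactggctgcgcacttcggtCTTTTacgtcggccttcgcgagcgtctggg
SNHG12 (chr1:28581844-28581893): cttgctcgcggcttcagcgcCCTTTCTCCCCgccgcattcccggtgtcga
ZFAS1 (chr20:49278622-49278671): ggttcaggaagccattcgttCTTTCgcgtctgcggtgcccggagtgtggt
SNHG7 (chr9:136728155-136728204): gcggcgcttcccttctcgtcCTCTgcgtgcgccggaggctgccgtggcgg
SNHG1 (chr11:62855856-62855905): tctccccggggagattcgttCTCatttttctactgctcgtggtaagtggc
SNHG8 (chr4:118278742-118278791): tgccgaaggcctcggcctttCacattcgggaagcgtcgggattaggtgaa
SNHG16 (chr17:76557744-76557793): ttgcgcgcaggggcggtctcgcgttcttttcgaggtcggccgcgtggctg
GAS5 (chr1:173869016-173869065): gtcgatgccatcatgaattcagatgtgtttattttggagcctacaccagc

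With a cytosine at the start and a run of at least 5 pyrimidines as the criterion, SNHG5, SNHG12 and ZFAS1 met it. The runs of SNHG7, SNHG1 and SNHG8 had 4, 3 and 1 bases, and GAS5 and SNHG16 opened with a purine at these starts. The RefSeq start of GAS5 lies upstream of the GENCODE span of the gene and of its canonical transcript, whose first exon of 30 bases (chr1:173867960-173867989) opens with a run of 6:
GAS5 canonical exon 1: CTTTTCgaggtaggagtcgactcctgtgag
Over all 35116 RefSeq promoters, 4.07% met the criterion. The share was 60% of the 25 matched ribosomal protein genes that host snoRNAs and 78.6% of the 14 matched translation factors known as TOP genes. The canonical start was looked up for GAS5 alone, and the annotated starts were not measured in these cells.

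Per kilobase of exon (union of all annotated exons), SNHG1 had the highest mean level over the libraries (247), followed by GAS5 (234), SNHG16 (215) and SNHG6 (179). SNHG7 row 1 was the lowest, at 6.48. The same 3 genes led with the length of the canonical transcript, which was added as an alternative after the data were seen, but in the order SNHG16 (2493), GAS5 (1504) and SNHG1 (844). Among these 3 the order thus depends on the annotation, and both SNHG7 rows were given the length of the whole gene. In untreated cells, the level per kilobase of GAS5 (union) was highest in Hep3B (369), followed by MHCC97H (201) and Huh7 (157), while SNHG16 was closer between the lines, with 223, 275 and 223.

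GAS5 had 776 scaled reads in untreated Huh7 cells, 977 with AZD8055, 485 with compound #57 and 1535 with the combination. In Hep3B the values were 1819, 2043, 990 and 1720 in the same order, and in MHCC97H 991, 891, 765 and 871. The library with compound #57 was thus the lowest of its line in all 3 lines, and the combination library was above it in each. The combination library of Huh7 was above the untreated one by a log2 difference of 0.98 (95% Clopper-Pearson interval of the read ratio 0.88 to 1.09, counting error only). The same difference was -0.08 (-0.17 to 0.01) in Hep3B and -0.19 (-0.31 to -0.07) in MHCC97H.

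Across the lines, limma gave GAS5 a log2-fold change of -0.64 with compound #57 (SE 0.24, adjusted p = 0.178) and 0.12 with AZD8055 (SE 0.24, adjusted p = 0.782). The combination was 0.24 above untreated cells (SE 0.24, adjusted p = 0.462) and 0.88 above compound #57 (SE 0.24, adjusted p = 0.0699). None of these passed the threshold of 0.05, although the last was higher in 3 of 3 lines. Without MHCC97H, the log2-fold change of the combination over compound #57 was 1.23 with an adjusted p of 0.0496.

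SNHG16, the host of SNORD1A to SNORD1C, was lowest with compound #57, as GAS5 was, in the lines treated for 48 h. Its level was 1289 in untreated Huh7 cells, 1324 with AZD8055, 737 with compound #57 and 1243 with the combination. Hep3B gave 1290, 1371, 738 and 1238, and MHCC97H gave 1590, 1328, 1516 and 1232. In Huh7 and Hep3B the library with compound #57 stood below the other 3, which were close together, while in MHCC97H it did not. The log2 difference with compound #57 was -0.81 (-0.92 to -0.70) in Huh7 and -0.80 (-0.92 to -0.69) in Hep3B, while it was -0.07 (-0.16 to 0.02) in MHCC97H. The log2-fold change over the 3 lines was -0.56 (SE 0.20, adjusted p = 0.168, limma). Without MHCC97H it was -0.80 and passed, with an adjusted p of 0.0252, and the combination was then above compound #57 by 0.75 (adjusted p = 0.0344, against 0.40 and 0.247 with all lines). Whether the lines differ was not tested, since each condition is 1 library.

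SNHG15, the host of SNORA9, was the only row that limma called lower with the combination. In untreated cells it had 285 scaled reads in Huh7, 165 in Hep3B and 202 in MHCC97H. With AZD8055 the levels were 131, 122 and 131, with compound #57 127, 71.7 and 203, and with the combination 95.5, 44.6 and 78.5, in the same order of lines. The combination library was the lowest of its line in all 3 lines, at 44.6 to 95.5 against 165 to 285 in untreated cells. How many of all genes are set apart in this way was not counted. Compound #57 alone left MHCC97H at its untreated level, with a log2 difference of 0.01 (-0.26 to 0.27), against -1.16 (-1.43 to -0.91) in Huh7 and -1.19 (-1.56 to -0.85) in Hep3B.

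With the combination, the log2-fold change of SNHG15 against untreated cells was -1.60 (SE 0.27, adjusted p = 0.00379, limma, lower in 3 of 3 lines). Against AZD8055 it was -0.87 (SE 0.27, adjusted p = 0.233) and against compound #57 -0.81 (SE 0.27, adjusted p = 0.105). The single drugs gave -0.72 (AZD8055, adjusted p = 0.123) and -0.78 (compound #57, adjusted p = 0.155). The difference between the combination and the sum of both drugs was -0.09 (SE 0.38) on the log2 scale. Leaving out Huh7 gave -1.61 with an adjusted p of 0.0721, so that the call against untreated cells was lost in a fit of 2 lines, and without MHCC97H the call with compound #57 alone was gained (-1.18, adjusted p = 0.0456).

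ZFAS1, transcribed from next to the start of ZNFX1, rose with the combination. Its levels in untreated cells were 157 in Huh7, 198 in Hep3B and 267 in MHCC97H. With AZD8055 they were 235, 222 and 300, with compound #57 117, 180 and 198, and with the combination 405, 240 and 376. In each line, the order of the libraries was compound #57, untreated, AZD8055 and the combination. The log2 difference of the combination from untreated cells was 1.36 (1.14 to 1.59) in Huh7, 0.28 (0.02 to 0.54) in Hep3B and 0.49 (0.29 to 0.70) in MHCC97H.

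The log2-fold change of ZFAS1 was 0.71 against untreated cells (SE 0.22, adjusted p = 0.0345) and 1.04 against compound #57 (SE 0.22, adjusted p = 0.0403), higher in 3 of 3 lines in both (limma). Both calls were lost whenever a cell line was left out, with adjusted p-values of 0.0525 to 0.228 against untreated cells and 0.105 to 0.404 against compound #57. The first was also lost when libraries were centred on their medians (0.64, adjusted p = 0.0547).

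SNHG7, the host of SNORA17A and SNORA17B, gave like profiles on both of its rows. Row 2 had 298, 261, 288 and 732 scaled reads in Huh7 (untreated, AZD8055, compound #57 and the combination), 151, 151, 124 and 173 in Hep3B, and 273, 258, 243 and 480 in MHCC97H. The untreated and single-drug libraries of a line were close to each other, and the combination stood above them, by the least in Hep3B. Row 1 held far fewer reads, with 35.7, 32.4, 29.5 and 70.6 in Huh7, 19.7, 18.8, 16.0 and 18.6 in Hep3B, and 30.7, 26.7, 22.8 and 59.1 in MHCC97H.

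The log2-fold change of row 2 with the combination was 0.77 against untreated cells (SE 0.21, adjusted p = 0.0209) and 0.93 against compound #57 (SE 0.21, adjusted p = 0.0435), higher in 3 of 3 lines in both (limma). Row 1 gave 0.60 (SE 0.29, adjusted p = 0.128) and 0.92 (SE 0.29, adjusted p = 0.0928), which did not pass. The calls of row 2 were lost without Huh7 (0.50, adjusted p = 0.190, and 0.72, adjusted p = 0.410) and without MHCC97H (0.74, adjusted p = 0.0947, and 0.91, adjusted p = 0.139). Without Hep3B the call against untreated cells was kept and that against compound #57 was lost (1.16, adjusted p = 0.119).

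SNHG5, SNHG6 and SNHG8 did not pass the test over all genes in any comparison. SNHG5, the host of SNORD50A and SNORD50B, had 537, 511, 521 and 944 scaled reads in Huh7 (treatments in the order given for SNHG7), 141, 149, 101 and 165 in Hep3B, and 300, 292, 241 and 329 in MHCC97H. The combination library was the highest in each line, and the difference from compound #57 came close to the threshold (log2-fold change 0.67, SE 0.17, adjusted p = 0.0540, limma, higher in 3 of 3 lines). It passed when only the 75% of genes with the highest mean were tested (adjusted p = 0.0479). SNHG6 had 386, 451, 547 and 809 in Huh7, 165, 200, 140 and 208 in Hep3B, and 661, 545, 673 and 644 in MHCC97H. Among the 11 rows, only SNHG6 had a log2-fold change above 0 with compound #57 across the lines (0.10, SE 0.21, adjusted p = 0.821). SNHG8 had 196, 128, 175 and 269 in Huh7, 248, 284, 158 and 233 in Hep3B, and 201, 139, 197 and 201 in MHCC97H. Its AZD8055 library was the lowest of the line in Huh7 and MHCC97H and the highest in Hep3B.

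SNHG1, also known as the host of U22, and SNHG12 varied together. SNHG1 had 1197, 773, 744 and 1550 scaled reads in Huh7, 1438, 1187, 1037 and 751 in Hep3B, and 1077, 528, 1024 and 464 in MHCC97H. SNHG12 had 85.2, 64.8, 56.1 and 127 in Huh7, 177, 106, 119 and 93.2 in Hep3B, and 121, 67.4, 134 and 53.4 in MHCC97H. For both genes the combination library was the highest in Huh7 and the lowest in Hep3B and MHCC97H. The log2 difference of SNHG1 between the combination and untreated cells was 0.37 (0.28 to 0.47) in Huh7, -0.94 (-1.06 to -0.82) in Hep3B and -1.21 (-1.36 to -1.07) in MHCC97H. For SNHG12 it was 0.57 (0.23 to 0.93), -0.92 (-1.28 to -0.59) and -1.16 (-1.61 to -0.75).

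With these opposite directions, neither gene passed the test over the 3 lines. The log2-fold change with the combination was -0.59 for SNHG1 (SE 0.35, adjusted p = 0.203) and -0.50 for SNHG12 (SE 0.38, adjusted p = 0.313). With AZD8055 alone both were below untreated cells in 3 of 3 lines, by -0.64 (SE 0.35, adjusted p = 0.254) and -0.65 (SE 0.38, adjusted p = 0.284), and this did not pass either. Pearson's correlation of the 2 genes over the 12 libraries, after each cell line was centred on its own mean, was 0.96, the highest of the 55 pairs of rows. These points share libraries and depth, and the value is a description.

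The next closest pair was the 2 rows of SNHG7 (0.95), followed by SNHG5 with SNHG7 row 2 (0.88) and GAS5 with ZFAS1 (0.82). GAS5 also had 0.80 with SNHG5 and 0.80 with SNHG16, and ZFAS1 had 0.81 with SNHG7 row 1 and 0.80 with SNHG5. The lowest values were those of SNHG15 with SNHG7 row 2 (-0.51) and with ZFAS1 (-0.50). GAS5 and SNHG1 had 0.38. Over all genes with no zero, the 10 most like GAS5 by the same measure were EIF3D (0.97), EIF2A (0.96), GTF3C3 (0.96), ZEB1-AS1 (0.95), OXA1L (0.94), ZCCHC7 (0.94), BTF3 (0.94), TOMM20 (0.94), XAB2 (0.93) and TIMM9 (0.93). None of the other members was among them.

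The promoters of the closest pair and of ZFAS1 are printed to show what they share. Each has 250 bases before and 50 bases after the RefSeq start on GRCh38.p14, 5′ to 3′ on the strand of the gene, with TATATAA and TATAAA in capitals on either strand:
SNHG1 (chr11:62855836-62856135): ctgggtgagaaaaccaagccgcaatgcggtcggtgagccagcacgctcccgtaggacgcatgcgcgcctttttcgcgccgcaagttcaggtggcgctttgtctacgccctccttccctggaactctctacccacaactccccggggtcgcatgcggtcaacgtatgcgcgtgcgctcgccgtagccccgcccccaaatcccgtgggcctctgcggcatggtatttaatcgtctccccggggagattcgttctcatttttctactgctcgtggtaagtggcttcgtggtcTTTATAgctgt
SNHG12 (chr1:28581824-28582123): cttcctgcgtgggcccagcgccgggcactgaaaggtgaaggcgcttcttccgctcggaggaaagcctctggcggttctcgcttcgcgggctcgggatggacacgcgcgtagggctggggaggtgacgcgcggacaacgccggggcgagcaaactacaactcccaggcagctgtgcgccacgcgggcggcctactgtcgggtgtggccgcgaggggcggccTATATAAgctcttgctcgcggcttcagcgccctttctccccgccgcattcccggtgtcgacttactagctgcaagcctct
ZFAS1 (chr20:49278392-49278691): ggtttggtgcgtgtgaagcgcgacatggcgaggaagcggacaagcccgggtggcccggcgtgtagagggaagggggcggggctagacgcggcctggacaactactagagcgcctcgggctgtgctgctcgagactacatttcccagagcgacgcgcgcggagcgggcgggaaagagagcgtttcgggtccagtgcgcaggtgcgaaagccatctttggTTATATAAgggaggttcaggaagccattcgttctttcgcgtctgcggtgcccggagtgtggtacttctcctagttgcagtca
TATATAA stood upstream of the start in SNHG12, ZFAS1 and also SNHG5, or 3 of the 8 matched members, against 2.57% of all promoters. In ZFAS1 the letters read as a match on both strands, shifted by 1 base. SNHG1 did not hold it, and its TATAAA match was on the opposite strand, downstream of the start. TATAAA was in SNHG1 and SNHG7 and in 11.5% of all promoters. The E-box CACGTG, at which MYC can bind, was in SNHG7 alone (7.26% of all). TGACG, part of the cAMP response element, was in SNHG8 and SNHG12 (24.6% of all), and TGATGNAA, a composite site of C/EBP and ATF factors, was in none (3.62% of all). Both strands were searched for each motif.

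Within the cell lines, a difference of at least 1.5-fold was counted. With AZD8055, none of the 11 rows was that much higher in any line, against 10.8% of all genes in Hep3B, 18.1% in MHCC97H and 14.2% in Huh7. SNHG12 was lower in Hep3B (1 of 11, against 4.32% of all genes). SNHG1, SNHG12 and SNHG15 were lower in MHCC97H (3 of 11, against 10.5%), and SNHG1, SNHG8 and SNHG15 in Huh7 (3 of 11, against 10.1%). SNHG15 and SNHG1 thus reached the fold in the same 2 lines.

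With compound #57, again no row was higher in any line (18.3% of all genes in Hep3B, 9.97% in MHCC97H and 12.1% in Huh7). GAS5, SNHG8, SNHG15 and SNHG16 were lower in Hep3B (4 of 11, against 12.6% of all genes), and GAS5, SNHG1, SNHG12, SNHG15 and SNHG16 in Huh7 (5 of 11, against 5.57%). In MHCC97H, 0 of 11 were lower (2.76% of all genes). The median log2 difference of the 11 rows was -0.47 in Hep3B, -0.42 in Huh7 and -0.07 in MHCC97H, where all genes had 0.01, 0.03 and 0.08.

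With the combination, 6 of 11 rows (GAS5, SNHG5, SNHG6, both rows of SNHG7 and ZFAS1) were at least 1.5-fold higher than untreated cells in Huh7, against 23.5% of all genes. The rows of SNHG7 reached it in MHCC97H (2 of 11, against 23.7%) and none did in Hep3B (22.7%). SNHG15 was lower in Huh7 (1 of 11, against 16.7%), and SNHG1, SNHG12 and SNHG15 were lower in Hep3B (15.7%) and in MHCC97H (13.7%), 3 of 11 in each. Against AZD8055, 9 of 11 rows were past 1.5-fold in Huh7, all of them higher (19.5% of all genes in either direction). In Hep3B 2 were past it, both lower (24.9%), and in MHCC97H 3, with 2 higher and 1 lower (12.2%). Against compound #57, 9 of 11 were past it in Huh7, all higher (26.4%). In Hep3B 4 were past it, 3 higher and 1 lower (18.3%), and in MHCC97H 6, with 3 higher and 3 lower (25.9%). These comparisons share the combination library of each line, and that of Huh7 bears on each of them. No p-value was computed within a line.

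Across the lines, limma called 3 of the 11 rows with the combination against untreated cells, where 36% of all genes were called. ZFAS1 and SNHG7 row 2 were higher (20.9% of all genes were called higher) and SNHG15 was lower (15.1%). Over all genes the split of 2410 higher and 1744 lower became 1993 and 2229 when libraries were centred on their medians. Against compound #57, ZFAS1 and SNHG7 row 2 were called, both higher (4.18% of all genes were called, 2.62% higher). With AZD8055 none was called (2.96% of all genes, 255 higher and 87 lower, or 256 and 217 in centred libraries), with 1 row at an unadjusted p under 0.05 and 0 called by voom on the recovered reads. With compound #57 none was called (0.00866%), with 3 rows at an unadjusted p under 0.05 and 0 by voom. Between the combination and AZD8055 and for the interaction of both drugs, 0% of all genes were called by limma or by voom, with 4 rows at an unadjusted p under 0.05 in each. Of all 11548 genes, 3165 had such a p with AZD8055 and 2501 with compound #57 (limma). The count was 1673 between the combination and AZD8055 and 178 for the interaction. Of the interaction estimates, 10 of 11 were above 0, from 0.28 to 1.06, and SNHG15 was at -0.09. The median over all genes was -0.01. In the lists described below, 29 of 29 ribosomal protein hosts, 17 of 17 TOP translation factors and 84 of 172 other coding hosts were above 0. So were 15 of 17 genes of proteins that assemble with snoRNAs, 6 of 9 other noncoding hosts, 11 of 18 NMD factors and 7 of 9 NMD substrates. The estimates of the 11 rows share the 3 combination libraries, and with Huh7 left out those of SNHG1 and SNHG12 were below 0 (-0.15 and -0.05).

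Other snoRNA hosts were set beside these genes. Of 18 further noncoding hosts listed, 9 were in the table. With the combination, EPB41L4A-AS1 (0.89, adjusted p = 0.0232) and SNHG11 (0.65, adjusted p = 0.0231) rose, while SNHG3 (-1.30, adjusted p = 0.0102), SNHG17 (-0.87, adjusted p = 0.0388) and DANCR (-0.63, adjusted p = 0.0218) fell (limma). DANCR also fell with AZD8055 (-0.88, adjusted p = 0.0390). Noncoding hosts outside the 10 therefore moved in both directions as well, with a median of -0.55 against 0.24 for the 11 rows and 0.09 for all genes. Over all genes, 20.9% were called higher and 15.1% lower with the combination.

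Of the 29 ribosomal protein genes with an annotated snoRNA in an intron, none was above 0 with compound #57 (median -0.34) and none was called. An unadjusted p under 0.05 (2501 of all 11548 genes, limma) was reached by 21 of the 29. In the combination against compound #57, 17 of the 29 rose and none fell. RPL13A, the host of SNORD32A to SNORD35A, gave 0.96 (adjusted p = 0.0104) and RPL5 gave 0.74 (adjusted p = 0.0255). The median of the 29 was 0.61, with 0.40 for the 11 rows and 0.03 for all genes. Against untreated cells 6 rose and RPL17 fell (-0.85, adjusted p = 0.0196). Of all genes, 20.9% were called higher and 15.1% lower in that comparison, and 2.62% higher against compound #57. Among the 17 were RPL10, RPL13, RPL13A, RPL23, RPL23A, RPL28, RPL30, RPL37, RPL39, RPL4, RPL5, RPL7A, RPS3 and RPS3A, and the 6 were RPL10, RPL13, RPL13A, RPL28, RPL37 and RPL5. With AZD8055 alone, 24 of the 29 were already above 0 (median 0.24). RPL13 and RPL13A were called higher there, as were 255 of all 11548 genes. The combination against AZD8055 gave the 29 a median of 0.03, with none called and 0% of all genes called. The 172 other coding hosts, which include DKC1, EEF2 and NOP56 of the lists that follow, had 18 that rose and 52 that fell with the combination, with a median of -0.13.

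Of 19 translation factors and like genes known to carry a TOP element, 17 were in the table. With the combination 10 rose against untreated cells (20.9% of all genes) and 10 against compound #57 (2.62%), and none fell in either. EEF2, the elongation factor that moves the ribosome along, gave 1.02 (adjusted p = 0.00342) and 1.29 (adjusted p = 0.0137), and EEF1A1, which brings aminoacyl-tRNA to it, gave 0.71 (adjusted p = 0.0120) and 1.08 (adjusted p = 0.0218). The others called in both were EIF3E, EIF3F, EIF3H, EIF3L, EIF4B, HNRNPA1, NAP1L1 and TPT1. The medians of the list were 0.49 and 0.78. With AZD8055 alone the median was already 0.30, with 15 of the 17 above 0. EIF3L, EIF4B and TPT1 were called higher there, as were 255 of all 11548 genes. The combination against AZD8055 gave a median of 0.11, with none of the list called and 0% of all genes called. Of the 4 members with a TOP-like start by annotation, ZFAS1 was called in the combination against untreated cells and against compound #57. SNHG5, GAS5 and SNHG12 were called in neither. SNHG7 row 2 was called in both as well, although the SNHG7 run of 4 bases did not meet the criterion. GAS5 is among the 4 by its canonical start, which was looked up for no other member.

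Transcripts of proteins that assemble with snoRNAs mostly fell. With the combination, 12 of 17 fell against untreated cells, among them NOP56 (-1.19, adjusted p = 0.00680) and FBL (-0.61, adjusted p = 0.0224), the core protein and the methyltransferase of box C/D particles, and DKC1 (-1.04, adjusted p = 0.00916), the pseudouridine synthase of box H/ACA particles. Only ZNHIT3, an assembly factor, rose (0.44, adjusted p = 0.0236). The others that fell were NHP2, NOLC1, NOP10, NOP58, NUFIP1, RPAP3, RUVBL1, RUVBL2 and SHQ1. The median was -0.61, and 15.1% of all genes were called lower in this comparison. With AZD8055 and with compound #57 alone, 0 of the 17 were called by limma, with 6 and 11 at an unadjusted p under 0.05. Such a p was reached by 3165 and 2501 of all 11548 genes.

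Among 18 factors of NMD and translation termination, CASC3 (0.47, adjusted p = 0.00662) and SMG6 (0.63, adjusted p = 0.0130) rose with the combination, and ETF1 (-0.96, adjusted p = 0.00384), EIF4A3, GSPT1 and MAGOHB fell. CASC3 was also called higher with AZD8055 (0.42, adjusted p = 0.0484) and against compound #57 (0.50, adjusted p = 0.0305). Of 9 mRNAs known as NMD substrates, GADD45B (2.69, adjusted p = 0.00296) and ATF3 (2.56, adjusted p = 0.00205) rose and SLC7A11 (-1.44, adjusted p = 0.0320) fell with the combination, and GADD45B rose with AZD8055 (2.05, adjusted p = 0.0382). The median of the 9 was -0.09, and these genes also respond to stress. Among all genes, 20.9% were called higher and 15.1% lower with the combination.

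Genes next to or overlapping the hosts were examined because how reads were assigned to strands is not given in the sources used here. SNHG1 and SLC3A2, the heavy chain of an amino acid transporter, start 51 bases apart on opposite strands. In the combination against untreated cells, SLC3A2 differed by -0.34 in Hep3B, -0.08 in MHCC97H and 0.10 in Huh7 on the log2 scale, less than SNHG1 in each line, and their centred values had a correlation of 0.40. ZFAS1 and ZNFX1, a helicase-like zinc finger protein, start 248 bases apart and overlap, and ZNFX1 was not called (0.16, SE 0.12, adjusted p = 0.316, limma). ZBTB37 overlaps GAS5 on the opposite strand, with a correlation of -0.28, and SNHG8 and SNHG12 overlap PRSS12 and TRNAU1AP. None of these neighbours was called in any comparison. Without the strand setting, reads of overlapping genes cannot be told apart.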

How the data were processed

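RNA of 3 HCC cell lines with 4 treatments each was sequenced, 1 library per condition. The values deposited by the authors are on a log2 scale, 1 per gene symbol and library, on the build hg38. The kit is named as TruSeq in the study and as polyA+ stranded in the labels, and the aligner, the read counting and the normalization are not given in the sources used here. At least 99.97% of the linear values in each library were whole reads (within 0.05), so that the values were read as log2 of reads scaled to 10000000 plus 1, with 0.001 standing for no read and set to 0. The depth of 10659949 to 15957248 reads limits single values by counting error, which the 95% Clopper-Pearson intervals cover.

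Across lines, limma 3.58.1 in R 4.3.3 was fitted to all 11548 rows and 12 libraries, with terms for the treatment and for the line (eBayes with trend, 6 residual degrees of freedom), with Benjamini-Hochberg adjustment over all rows, and rows under 0.05 were called. Libraries were paired by their cell line, as the labels give it. Within a line, log2 differences were given with no p-value. The calculations were tested on simulated data. Python 3.11.15 with pandas 2.3.3, numpy 2.4.6, scipy 1.17.1 and matplotlib 3.10.9 was used.

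The members and lists were chosen with earlier results of these data known. All members are named, as are genes of the lists that were called in a comparison described (those of the 172 other coding hosts only as counts) and genes that overlap a member or start within 2000 bases of its start. Some genes that this rule names are not reported here. Coding hosts were taken from GENCODE release 44 and the RefSeq snoRNAs on GRCh38. Alternatives were a constant of 10 instead of 1, a filter to the 75% of genes highest on average, centred libraries, no cell line term, the compared libraries alone, voom on the recovered reads, eBayes without trend, each cell line left out and 2-fold in place of 1.5-fold.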

Additional observations from a re-analysis of the deposited data

Results flagged for a closer look

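For 3 genes, the combination gave values on opposite sides of the untreated library in 2 cell lines, with both 95% counting intervals away from 0 and at least 1 between them on the log2 scale. GAS5 was 1.17 apart, with 0.98 in Huh7 and -0.19 in MHCC97H. SNHG1, at 0.37 in Huh7, was 1.31 apart from Hep3B (-0.94) and 1.58 apart from MHCC97H (-1.21). SNHG12, at 0.57 in Huh7, was 1.49 apart from Hep3B (-0.92) and 1.73 apart from MHCC97H (-1.16). All 5 differences rest on the same combination library of Huh7 and its untreated library. They were not tested, since each condition is 1 library, and in MHCC97H the exposure was 24 h in place of 48 h. With 3 libraries in a treatment group, single libraries were not tested as outliers.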

How the results depend on the processing

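The number of rows called by limma depended on the cell lines and on the cell line term. With 1 line left out, 0 to 2 rows were called in the combination against untreated cells (3 with all lines), with 0 without Huh7 and SNHG15 alone without MHCC97H, 0 to 2 in the combination against compound #57 (2 with all lines), and 0 to 2 with compound #57 alone (0 with all lines). Over all 11548 rows, the combination against untreated cells gave 4154 calls with all lines, 11 without Huh7, 1797 without Hep3B, 1889 with only the libraries compared and 0 without the cell line term. AZD8055 gave 342 calls, with 0 to 109 when a line was left out, 2 with only the libraries compared and 0 without the cell line term. The combination against compound #57 gave 483 calls, with 0 to 331 when a line was left out, 286 without trend, 265 with only the libraries compared and 0 without the cell line term. Compound #57 gave 1 call, 90 with voom and 778 without MHCC97H. Without the cell line term (no replicate block), 0 rows were called in the combination against untreated cells and 0 against compound #57, since the term is what pairs the libraries of a line. With only the libraries compared, SNHG15 alone remained (1 row) against untreated cells and 0 against compound #57, where eBayes without trend also gave 0. The rank of GAS5 per kilobase was 2 with either length. At 2-fold in place of 1.5-fold, 2 of 33 values within lines were past the fold with AZD8055 (7 at 1.5-fold), 2 with compound #57 (9), 8 with the combination (15), 6 for the combination against AZD8055 (14) and 10 against compound #57 (19). Among estimates with an unadjusted p of 0.05 or more, 16 changed sign, each with a line left out, among them that of GAS5 with the combination (-0.13 without Huh7), and none of these 16 was called. One further estimate of that class gained a call, that of SNHG16 in the combination against compound #57 without MHCC97H (0.75, adjusted p = 0.0344). With only the 75% of genes highest on average, SNHG5 gained the call in that comparison (adjusted p = 0.0479). This filter kept 8 of the 11 rows and left out SNHG15, so that its call against untreated cells could not be recomputed there. SNHG7 row 2 and ZFAS1 stayed called against untreated cells. Among estimates with an unadjusted p under 0.05, 24 recomputed values lost the call, 4 gained it and none changed sign. Depth limits SNHG7 row 1 most, with 21 to 82 reads in a library.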
